A study of Mus musculus with 8 samples.

Results

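The Hox genes of the mouse were followed in pre-iPSCs, somatic cells caught part of the way to becoming induced pluripotent stem cells (iPSCs). The genes were those whose annotation symbol is Hoxa, Hoxb, Hoxc or Hoxd followed by a number only, each read at its brightest probe set that carries no second gene symbol. Of 39 such genes in the RefSeq gene table, 33 could be measured this way, among 18193 genes on the array. After 3 days of siRNA in medium for embryonic stem cells, total RNA was taken and hybridised to Affymetrix arrays. Control arrays (n = 3) come from pre-iPSCs with siRNA to luciferase, arrays named 3XHMT (n = 2) from pre-iPSCs with siRNA to Ehmt1, Ehmt2 and Setdb1 together, and Cbx3 arrays (n = 3) from pre-iPSCs with siRNA to Cbx3. Ehmt1, Ehmt2 and Setdb1 encode enzymes that methylate histone H3 at lysine 9, and Cbx3 encodes HP1 gamma, a chromatin protein that binds that mark. What was repeated between biological replicates is not stated, and the labels name no cell line or clone, so the p-values measure the spread between these arrays. In bulk RNA, fewer cells that express a gene and less of its RNA per cell cannot be told apart.

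Hox genes encode homeodomain transcription factors that give cells their position along the body axis. In mammals they lie in clusters, named A to D, on separate chromosomes, and genes at the same place in different clusters share a paralogue number. Genes with low numbers sit at the 3' end of a cluster and act early and towards the head, whereas those with high numbers sit at the 5' end and act late and towards the tail, the limb buds and the genital tubercle. In pluripotent cells the clusters are known as a classic target of Polycomb repression, and fibroblasts and other somatic cells keep the Hox code of the body site from which they came.

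The targeted transcripts and the structure of the arrays were checked first. The brightest Cbx3 probe set, whose annotation also names the pseudogene Cbx3-ps5, stood at 42.8% of control in the Cbx3 arrays (limma adjusted p = 0.0453 over all probe sets). The 1 probe set annotated to Cbx3 alone is dim and stood at 82.9% (limma adjusted p = 0.988). In the 3XHMT arrays the brightest probe sets of Setdb1, Ehmt2 and Ehmt1 stood at 63.2%, 66.8% and 79.6% of control, and none passed the threshold (the lowest limma adjusted p was 0.556, for Setdb1). Pou5f1, a core pluripotency factor, was bright in every group, at 12.99 in control, 13.04 in 3XHMT and 12.84 in Cbx3 on the log2 scale, and Nanog was low in control at 5.13. The arrays also differ in the signal of the control probe set for 18S ribosomal RNA, which divides them into 3 tiers. The low tier holds control 3, 3XHMT 2 and Cbx3 3 (9.98 to 10.2 on the log2 scale), the middle tier control 1 and Cbx3 1 (11.2 and 11.5), and the high tier control 2, 3XHMT 1 and Cbx3 2 (12.6 to 12.8). A fit that takes the tier as a block (the blocked fit) is given beside the results it changes.

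The 5' flanks of 4 members are printed here, since these are the genes with promoter sequence that separated 3XHMT from Cbx3 cells in the blocked fit. Each run holds the 250 bases before the RefSeq start site in build GRCm38.p6, 5' to 3' on the gene's own strand, with the CG dinucleotides in capitals. Hoxd13 lies at chr2:74667975-74668224 on the plus strand and Hoxd1 at chr2:74762730-74762979 on the plus strand. Hoxa9 lies at chr6:52227371-52227620 on the minus strand and Hoxa13 at chr6:52260881-52261130 on the minus strand.
Hoxd13: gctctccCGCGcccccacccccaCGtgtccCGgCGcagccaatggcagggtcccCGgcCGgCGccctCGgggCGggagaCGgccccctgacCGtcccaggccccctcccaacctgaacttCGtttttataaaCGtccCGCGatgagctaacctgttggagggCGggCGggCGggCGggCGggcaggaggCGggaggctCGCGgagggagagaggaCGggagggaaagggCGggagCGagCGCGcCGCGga
Hoxd1: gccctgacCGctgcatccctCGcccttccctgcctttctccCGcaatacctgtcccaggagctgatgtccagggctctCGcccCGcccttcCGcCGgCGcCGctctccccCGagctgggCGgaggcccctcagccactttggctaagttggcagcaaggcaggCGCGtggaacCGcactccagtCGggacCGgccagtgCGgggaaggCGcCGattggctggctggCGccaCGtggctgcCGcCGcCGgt
Hoxa13: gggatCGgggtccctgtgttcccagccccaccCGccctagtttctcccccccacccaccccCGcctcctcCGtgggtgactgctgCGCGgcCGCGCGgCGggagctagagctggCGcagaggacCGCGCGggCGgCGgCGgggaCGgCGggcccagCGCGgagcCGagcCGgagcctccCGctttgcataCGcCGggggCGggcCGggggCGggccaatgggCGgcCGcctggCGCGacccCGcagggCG
Hoxa9: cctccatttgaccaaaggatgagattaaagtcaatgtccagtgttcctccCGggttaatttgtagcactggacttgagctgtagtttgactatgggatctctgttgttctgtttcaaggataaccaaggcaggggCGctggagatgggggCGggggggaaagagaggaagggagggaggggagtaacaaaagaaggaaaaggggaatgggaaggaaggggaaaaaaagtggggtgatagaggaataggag

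Those flanks differ widely in CG content. Hoxa13 holds 35 CG dinucleotides, Hoxd13 holds 31, Hoxd1 holds 24 and Hoxa9 holds 3. The 21 distinct flanks available for 19 measured members held 2 to 35 with a median of 13, against a median of 6 over 32536 promoters of the same length. The motif TATAAA, searched on both strands, was found in the Hoxd13 flank and in that of Hoxa10, which makes 2 of 21 flanks, and in 12.3% of all promoters. The motif TGATNNAT, a recognition pattern of PBX and HOX proteins together, was found on either strand in the flanks of Hoxa2, Hoxb1 and Hoxd11, 3 of 21, and in 7.66% of all promoters, and in none of the 4 printed here. These matches describe the letters in the window alone.

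The measured genes cover the 4 clusters unevenly. Cluster A on chromosome 6 contributed 9 of 11 genes, cluster B on chromosome 11 contributed 9 of 10, cluster C on chromosome 15 contributed 7 of 9, and cluster D on chromosome 2 contributed 8 of 9. The remaining genes were not analysed here. Among them, Hoxb8 is represented together with Hoxb7 on 1 shared probe set, and Hoxd4 together with Hoxd3 on 2, so Hoxb8 and Hoxd4 were not counted.

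Signal differed widely between the probe sets of a cluster. Of the 33 genes, 15 had a mean over the 8 arrays at or above 5.89, the median log2 signal of all probe sets, and they lie 6 in cluster A, 2 in cluster B, 3 in cluster C and 4 in cluster D. Read at their brightest probe set in the same way, 11526 of all 18193 genes reached that signal. The highest control signals of the clusters were those of Hoxa9 at 11.04 ± 0.18 (SD, n = 3), Hoxd8 at 9.44 ± 0.42, Hoxb4 at 6.88 ± 0.14 and Hoxc4 at 6.79 ± 0.43. Hoxd13, a gene of the distal limb and the urogenital tract, stood at 8.80 ± 0.36 in control. Hoxb1, which patterns the hindbrain, stood at 3.29 ± 0.05. Probe sets differ in their affinity and no detection limit was used, so these levels describe each probe set, do not rank the genes and do not say which genes are expressed. The 18 genes under 5.89 lie where array signal compresses differences.

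**Figure D1:**
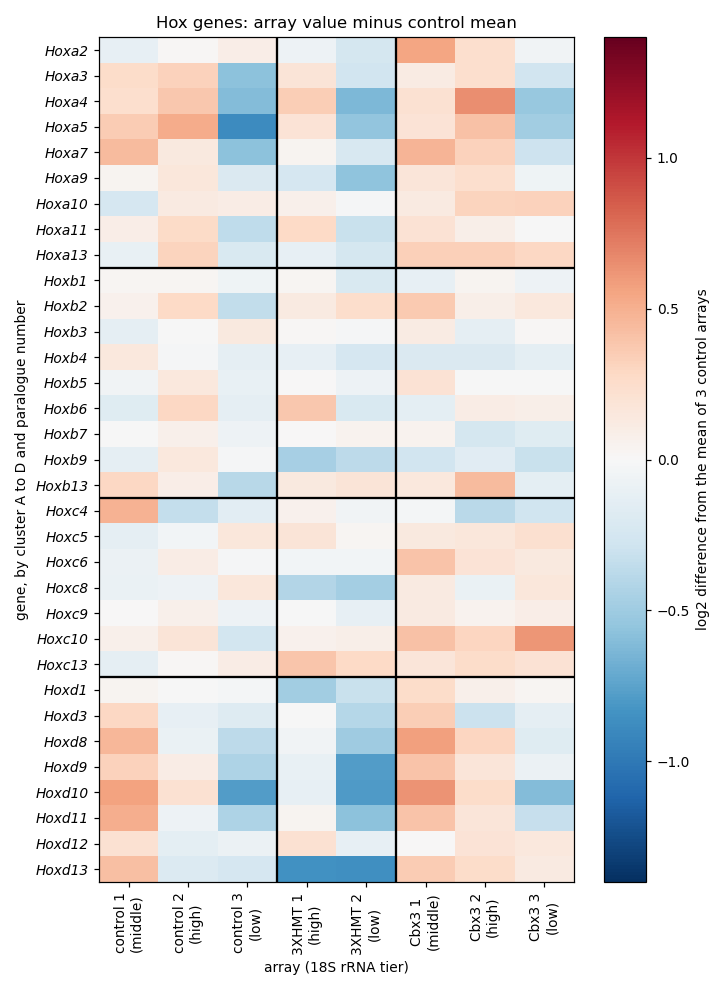
Log2 signal of the 33 measured Hox genes on each of the 8 arrays (columns, with their 18S tier), shown as the difference from the mean of the 3 control arrays. Rows run by cluster and paralogue number. Hoxd13 is blue on both 3XHMT arrays, and the columns of the low tier (control 3, 3XHMT 2, Cbx3 3) are bluer in clusters A and D.

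siRNA to the methyltransferases was compared with control first, which reads the Hox genes after a knockdown of enzymes that place H3K9 methylation. Without the block, most measured genes of clusters A and D read lower, and about as many genes of B and C read lower as higher. Over all members 22 of 33 were lower and 11 higher, with a median difference of -0.09 on the log2 scale, where 48.4% of all genes were lower and their median was 0.01. By limma (two-sided, Benjamini-Hochberg over all genes) 0 of 33 members changed, where 0.0275% of all genes were called lower and 0.203% higher. At an unadjusted p under 0.05 there were 5 members lower and 1 higher, where 2.63% of all genes were lower and 2.63% higher. The arrays of the groups did not overlap for 5 lower members and 1 higher member, against 7.10% and 9.28% of all genes. In the blocked fit 1 member fell and 0 rose, where 0.890% and 0.868% of all genes did. For 28 of 33 members the 95% interval of the difference lay within a 2-fold change in either direction. The exceptions were Hoxd13, Hoxd10, Hoxd9, Hoxa4 and Hoxa5.

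Hoxd13 gave the largest difference. Its log2 signal was 9.22, 8.61 and 8.57 on the control arrays, 7.96 and 7.94 on the 3XHMT arrays, and 9.16, 9.06 and 8.92 on the Cbx3 arrays. Both 3XHMT arrays lay below every other array, while control and Cbx3 arrays overlapped. The difference from control was -0.85 ± 0.20 (SE), 1.80-fold lower, with a 95% interval from -1.30 to -0.40, and it did not pass by limma (adjusted p = 0.277). Blocking on the tier gave -0.72 ± 0.14, 1.65-fold lower, which passed (adjusted p = 0.0395). Within the tiers it was -0.63 in the low and -0.66 in the high tier. The blocked call was kept in 2 of 8 fits that left out 1 array, those without control 1 and without Cbx3 1, which hold the same comparison because the remaining middle array then stands alone in its tier (adjusted p 0.0453 to 0.181 over the 8).

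The other members at an unadjusted p under 0.05 were mostly dim. Hoxd1, an anterior gene at the other end of cluster D, read 4.65, 4.60 and 4.58 in control and 4.12 and 4.30 in 3XHMT, without overlap. Its difference was -0.40 ± 0.12 (SE; limma adjusted p = 0.530). Hoxc8, which patterns the lower neck and upper trunk, read 4.08, 4.09 and 4.32 in control and 3.76 and 3.69 in 3XHMT, again without overlap. Its difference was -0.44 ± 0.13 (limma adjusted p = 0.522). Hoxb9, a gene of the thoracic region, read 5.10, 5.37 and 5.21 in control and 4.77 and 4.86 in 3XHMT. Its difference was -0.41 ± 0.13 (limma adjusted p = 0.522), and it was the only cluster B gene whose arrays separated in this comparison. Hoxa9, a posterior gene known for its role in blood progenitors, is the brightest of them. It read 11.07, 11.20 and 10.84 in control and 10.81 and 10.47 in 3XHMT, with the upper 3XHMT array just under the lowest control array. Its difference was -0.40 ± 0.16 (limma adjusted p = 0.905).

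Hoxc13, which controls keratin genes of hair and nail, went the other way. It read 5.01, 5.16 and 5.24 in control and 5.52 and 5.42 in 3XHMT, without overlap, a difference of 0.34 ± 0.12 (SE; limma adjusted p = 0.701). In the blocked fit none of Hoxd1, Hoxc8, Hoxb9, Hoxa9 and Hoxc13 passed over all genes (limma adjusted p 0.131 to 0.307).

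**Figure D2:**
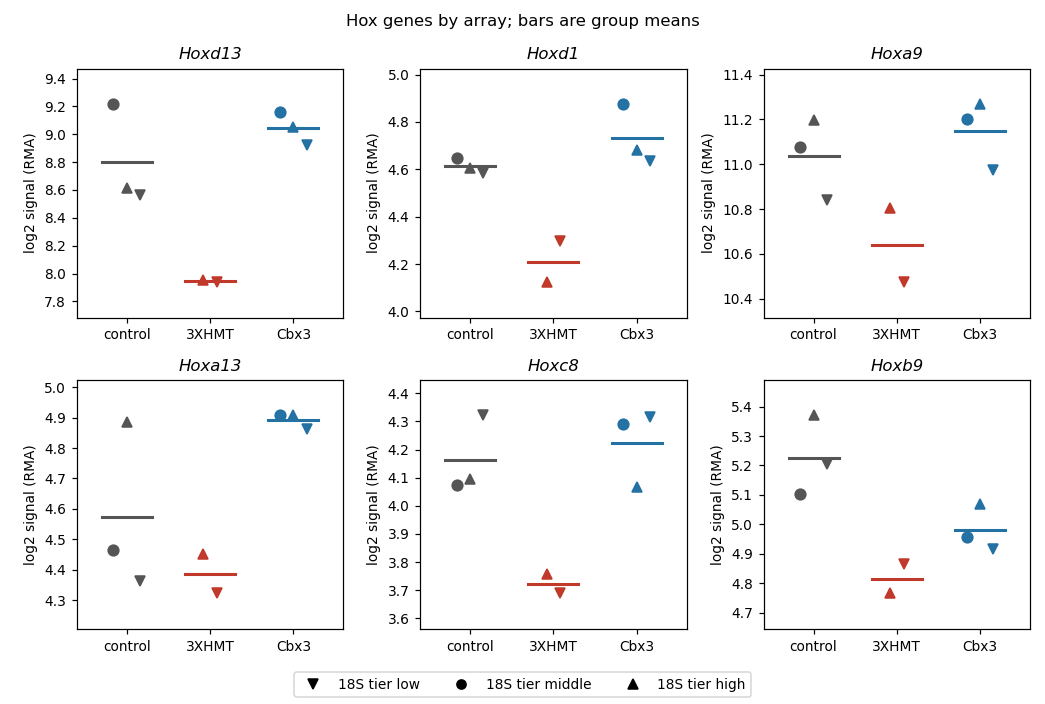
Log2 signal by array for Hoxd13, Hoxd1, Hoxa9, Hoxa13, Hoxc8 and Hoxb9, with bars at the group means and the marker shape giving the 18S tier. The y axes differ between panels. For each of these genes except Hoxa13 both 3XHMT arrays lie below all control arrays.

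By cluster, 8 of 9 genes of cluster A were lower in 3XHMT than in control (median -0.14) and 7 of 8 of cluster D (median -0.34), against 4 of 9 in cluster B (median 0.00) and 3 of 7 in cluster C (median 0.01). In the blocked fit 6 of 9 genes of cluster A, 5 of 9 of B, 3 of 7 of C and 7 of 8 of D were lower, with medians of -0.06, 0.00, 0.07 and -0.13. In the low tier all 8 genes of cluster D were lower, with a median of -0.19, and in the high tier 4 of 8, with a median of -0.08. Cluster A had 5 of 9 lower in the low tier (median -0.02) and 8 of 9 in the high tier (median -0.10), while cluster B had 5 of 9 lower in each (medians -0.09 and -0.07). Cluster C had 4 of 7 lower in each (medians -0.01 and -0.07). The clusters' order changes with the tier, and the difference between clusters was not tested. By paralogue number, 5 of 7 anterior genes (1 to 3), 8 of 12 central genes (4 to 8) and 9 of 14 posterior genes (9 to 13) were lower, with medians of -0.09, -0.06 and -0.12. Without the block the count depended on single arrays. Without 3XHMT 2 it was 14 of 33 lower with a median of 0.018, and without 3XHMT 1 it was 27 of 33 with a median of -0.23. Within the tiers, 22 of 33 members were lower in the low tier (median -0.04) and 21 in the high tier (median -0.08).

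Cbx3 siRNA was compared with control next, for the protein that binds the mark. Most Hox differences were small and above 0, and no single gene passed. In all 26 of 33 members were higher and 7 lower, with a median of 0.11, where 47.0% of all genes were lower and their median was 0.01. By limma 0 members changed, where 0.192% of all genes were called lower and 0.253% higher, and in the blocked fit again 0, where 3.50% and 3.09% were called. At an unadjusted p under 0.05 there were 0 members lower and 1 higher, against 4.79% and 4.77% of all genes. The arrays did not overlap for 2 members lower, Hoxb4 and Hoxb9, and for 4 higher, Hoxa10, Hoxc6, Hoxc10 and Hoxc13, against 6.78% and 7.52% of all genes. The 95% interval lay within 2-fold for 32 of 33 members, all but Hoxd10. These differences share their control arrays with those of 3XHMT.

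The 1 member at an unadjusted p under 0.05 was Hoxc10, a gene of the lumbar spinal cord and hindlimb. It read 4.35, 4.45 and 4.02 in control and 4.69, 4.58 and 4.90 in Cbx3, without overlap. The difference was 0.45 ± 0.14 (SE), 1.36-fold higher (limma adjusted p = 0.300; 0.105 in the blocked fit). The 3XHMT arrays, at 4.34 and 4.36, lay within the control range. Hoxa13, which acts in the hand, foot and genital tubercle, had the largest difference of cluster A. It read 4.47, 4.89 and 4.36 in control and 4.91, 4.91 and 4.86 in Cbx3, where control 2 reached the Cbx3 arrays and the others did not. The difference was 0.32 ± 0.15 (limma adjusted p = 0.550).

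Hoxb9 lay lower in the Cbx3 arrays too, at 4.96, 5.07 and 4.92. Its difference from control was -0.25 ± 0.11 (SE; limma adjusted p = 0.553), the largest of cluster B in this comparison. Hoxd13 had the largest difference of cluster D, at 0.25 ± 0.18 with overlapping arrays (limma adjusted p = 0.832). Within the tiers the Hoxd13 difference was 0.36, -0.06 and 0.44 in the low, middle and high tier.

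By cluster, 9 of 9 genes of cluster A, 6 of 7 of cluster C and 7 of 8 of cluster D were higher in Cbx3 than in control, against 4 of 9 of cluster B, with medians of 0.11, 0.17, 0.12 and 0.00. By paralogue number, 4 of 7 anterior, 9 of 12 central and 13 of 14 posterior genes were higher. The count depends on single arrays: 16 of 33 members were lower without control 3 and 12 without Cbx3 1. The medians were then 0.01 and 0.05, against 0.11 over all arrays. The tiers gave 25, 22 and 19 of 33 members higher in the low, middle and high tier.

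**Figure D3:**
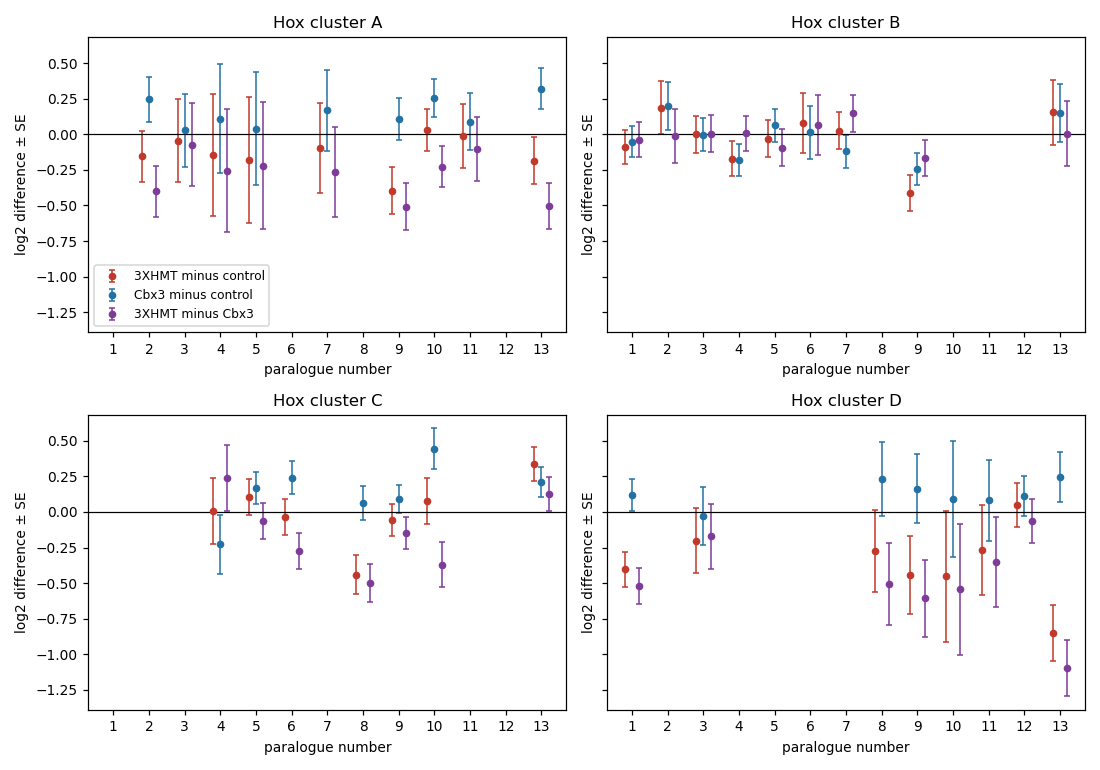
Log2 difference with its standard error for each measured Hox gene, by cluster (panels) and paralogue number (x axis), for 3XHMT minus control (red), Cbx3 minus control (blue) and 3XHMT minus Cbx3 (purple). Hoxd13 has the lowest red and purple points, at -0.85 and -1.10, and the 9 genes of cluster B lie between -0.41 and 0.20 in all comparisons.

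The knockdowns were then compared with each other. This gave the only member called without the block. Hoxd13 was lower in 3XHMT than in Cbx3 by 1.10 ± 0.20 (SE) on the log2 scale, 2.14-fold, with a 95% interval from -1.55 to -0.64 (limma adjusted p = 0.0387). It was the only one of 33 members called lower, where 0.704% of all genes were, and 0 members were called higher, where 0.808% were. The call was lost when any of 6 arrays was left out, with limma adjusted p of 0.0552 without control 2, 0.172 without 3XHMT 1, 0.221 without 3XHMT 2, 0.139 without Cbx3 1, 0.129 without Cbx3 2 and 0.0802 without Cbx3 3, while the difference stayed between -1.16 and -1.04. Blocking on the tier gave a difference of -0.97 ± 0.14 (adjusted p = 0.00315), and the call was kept in 8 of 8 such fits that left out 1 array (adjusted p 0.00188 to 0.0318). The lowest of these came from the fits without control 1 and without Cbx3 1, which hold the same comparison. Within the low and the high tier the difference was -0.99 and -1.10.

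In this comparison 26 of 33 members were lower in 3XHMT, with a median of -0.17, where 50.5% of all genes were lower and their median was 0.00. At an unadjusted p under 0.05 there were 6 members lower and 0 higher, against 5.76% and 5.65% of all genes. The arrays did not overlap for 12 members lower and 1 higher, against 13.5% and 13.2% of all genes. In the blocked fit 5 members were called lower and 0 higher, where 4.43% and 4.69% of all genes were called. Those were Hoxd13, Hoxd1, Hoxa9, Hoxa13 and Hoxc8. The median over members was -0.057 without 3XHMT 2 and -0.30 without 3XHMT 1. These values share arrays with both comparisons against control. The 95% interval lay within 2-fold for 26 of 33 members.

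The 4 genes called with the block besides Hoxd13 had smaller differences. Hoxd1 read 4.88, 4.68 and 4.64 on the Cbx3 arrays, above both 3XHMT arrays, and differed by -0.52 ± 0.12 (SE; limma adjusted p = 0.0982; 0.0350 with the block). Hoxc8 read 4.29, 4.07 and 4.32 on the Cbx3 arrays and differed by -0.50 ± 0.13 (limma adjusted p = 0.139; 0.0395 with the block). Hoxa9 read 11.20, 11.27 and 10.97 on the Cbx3 arrays and differed by -0.51 ± 0.16 (limma adjusted p = 0.234; 0.0226 with the block). Hoxa13 read 4.45 and 4.32 on the 3XHMT arrays, below all 3 Cbx3 arrays, and differed by -0.51 ± 0.16 (limma adjusted p = 0.231; 0.0458 with the block). For each of the 4 the arrays of both groups stood apart, but the blocked call was kept in only 2 of 8 fits without 1 array for Hoxa9 and Hoxa13, 1 of 8 for Hoxc8 and 0 of 8 for Hoxd1. Their adjusted p ranged over those fits from 0.0410 to 0.119 for Hoxa9, 0.0477 to 0.226 for Hoxa13, 0.0456 to 0.318 for Hoxc8 and 0.0632 to 0.186 for Hoxd1.

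Hoxc10 was also lower in 3XHMT than in Cbx3, by 0.37 ± 0.16 (SE; limma adjusted p = 0.432). Cluster D had all 8 genes lower, with a median of -0.51 (-0.29 in the tier-blocked fit), and cluster A all 9, with a median of -0.25 (-0.17 with the block, where 8 of 9 were lower). Cluster C had 5 of 7 lower (median -0.15). In cluster B 4 of 9 were lower, the median was 0.00, and every 95% interval lay within 2-fold. Of the posterior genes 12 of 14 were lower (median -0.29), of the central genes 8 of 12 (median -0.16) and of the anterior genes 6 of 7 (median -0.07).

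A further pattern ran across the arrays within each group. For 13 of 33 members the low-tier array was the lowest array of its group in all 3 groups, as it was for 17.6% of all genes. These were Hoxa3, Hoxa4, Hoxa5, Hoxa7, Hoxa9, Hoxa11 and Hoxa13 of cluster A, Hoxb5 of cluster B, and Hoxd8, Hoxd9, Hoxd10, Hoxd11 and Hoxd13 of cluster D, which makes 7 of 9, 1 of 9 and 5 of 8, against 0 of 7 in cluster C. This count does not use the size of the step. For Hoxd13 the low-tier array differed from the mean of the rest of its group by -0.35, -0.02 and -0.18 in control, 3XHMT and Cbx3. No member had the low-tier array highest in all groups. Hoxa5, chosen here after its values were seen, read 8.46, 8.63 and 7.23 in control, 8.30 and 7.55 in 3XHMT, and 8.30, 8.51 and 7.62 in Cbx3. The last array of each group is the low-tier one and was lower than the mean of the rest of its group by 1.31, 0.75 and 0.78 on the log2 scale. Hoxd10, chosen likewise, read 6.72, 6.36 and 5.37, then 6.04 and 5.36, then 6.78, 6.41 and 5.54 in the same order. These steps between arrays of 1 group exceed the differences between groups for both genes, which were -0.18 ± 0.44 (SE) for Hoxa5 and -0.45 ± 0.46 for Hoxd10 in 3XHMT against control. Hoxc8 and Hoxd1 did not follow the tier. What the 18S signal stands for in these samples was not tested.

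**Figure D4:**
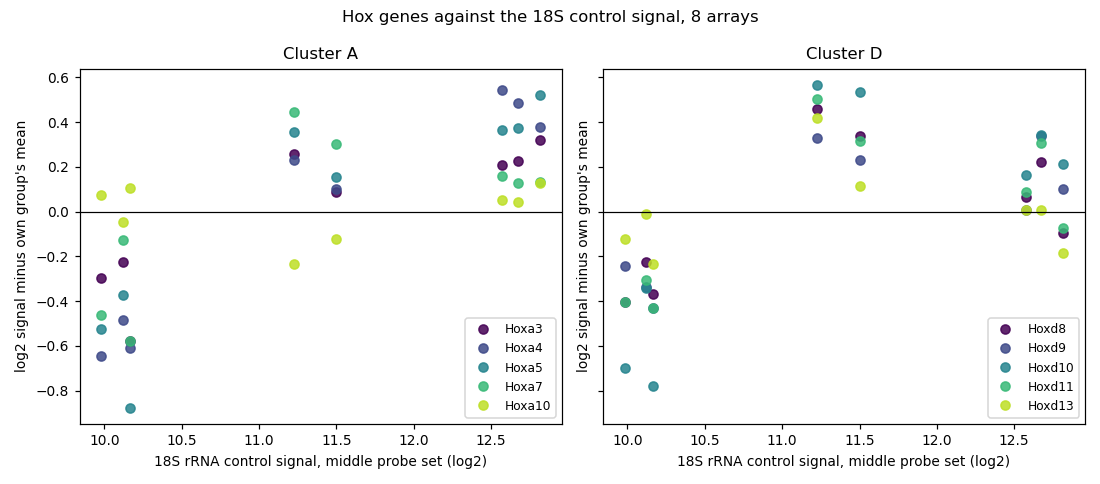
Deviation of each array from its own group's mean, on the log2 scale, against the log2 signal of the middle 18S control probe set, for 5 genes of cluster A (left) and 5 of cluster D (right) on 8 arrays. The 3 arrays with 18S signal near 10 lie below 0 for Hoxa3, Hoxa4, Hoxa5 and Hoxa7 and for all 5 genes of cluster D, while Hoxa10 does not follow.

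Some members are seen by more than 1 probe set, and these did not always give the same size or direction of difference. In all, 48 one-symbol probe sets cover the 33 genes, and 11 genes have more than 1. The second probe set of Hoxd13 is dimmer and read 6.13, 6.04 and 5.46 in control, 5.72 and 5.62 in 3XHMT, and 5.92, 6.39 and 5.94 in Cbx3. Here 3XHMT lay below Cbx3 without overlap but within the control range. It gave -0.41 for 3XHMT against Cbx3 (limma adjusted p = 0.653) and -0.21 against control, and the mean of both probe sets gave -0.76 against Cbx3 (adjusted p = 0.110), so the call belongs to the brighter probe set. The second probe set of Hoxa9 read 9.43, 9.43 and 8.53 in control, 8.97 and 8.90 in 3XHMT, and 9.47, 9.58 and 8.79 in Cbx3, with overlap throughout. That of Hoxa10 is dim and went the other way from the probe set used. It gave 0.32 for 3XHMT against Cbx3 and -0.10 for Cbx3 against control, where the probe set used gave -0.23 and 0.26. Its 3XHMT arrays, at 4.74 and 4.57, lay above the Cbx3 arrays, at 4.24, 4.44 and 4.32. The 2 probe sets shared by Hoxd4 and Hoxd3 differed by -0.10 and -0.25 in 3XHMT against control, and the one shared by Hoxb8 and Hoxb7 by 0.11, all with limma p above the threshold of 0.05.

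Partners and regulators of the Hox proteins were read from lists of their own, counted at an unadjusted p under 0.05 beside the shares of all genes given above (2.63% in each direction in 3XHMT against control, 4.79% lower and 4.77% higher in Cbx3 against control, 5.76% and 5.65% in 3XHMT against Cbx3). In the blocked fit those shares were 6.21% lower and 6.38% higher, 9.79% and 9.54%, and 11.0% and 11.0%. Hox proteins bind DNA together with TALE homeodomain cofactors of the Pbx, Meis and Pknox families, of which 8 were measured. In 3XHMT against control 2 of 8 were lower at that level and 0 higher, with or without the block, and the median of the list was -0.11. Against Cbx3 2 were lower and 0 higher, and 3 and 0 with the block. Pbx3 read 9.66, 9.83 and 10.13 in control, 9.27 and 9.41 in 3XHMT, and 9.87, 9.95 and 9.98 in Cbx3. The 3XHMT arrays were the lowest, while Cbx3 lay within the control range. Its difference was -0.53 ± 0.15 (SE; limma adjusted p = 0.467; 0.0470 in the blocked fit) against control and -0.59 ± 0.15 (adjusted p = 0.121; 0.0105 with the block) against Cbx3. Meis1 read 7.17, 7.34 and 7.01 in control, 6.55 and 6.78 in 3XHMT, and 7.37, 7.78 and 7.18 in Cbx3, again with 3XHMT below every other array. Its difference was -0.51 ± 0.19 against control (limma adjusted p = 0.822) and -0.78 ± 0.19 against Cbx3 (adjusted p = 0.114; 0.0244 with the block). Meis2 was the 1 cofactor at an unadjusted p under 0.05 in Cbx3 against control, at -0.52 ± 0.22 (limma adjusted p = 0.516), and the median of the list there was 0.02. With the block 1 cofactor was lower and 2 higher at that level in this comparison, and 0 passed over all genes.

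**Figure D5:**
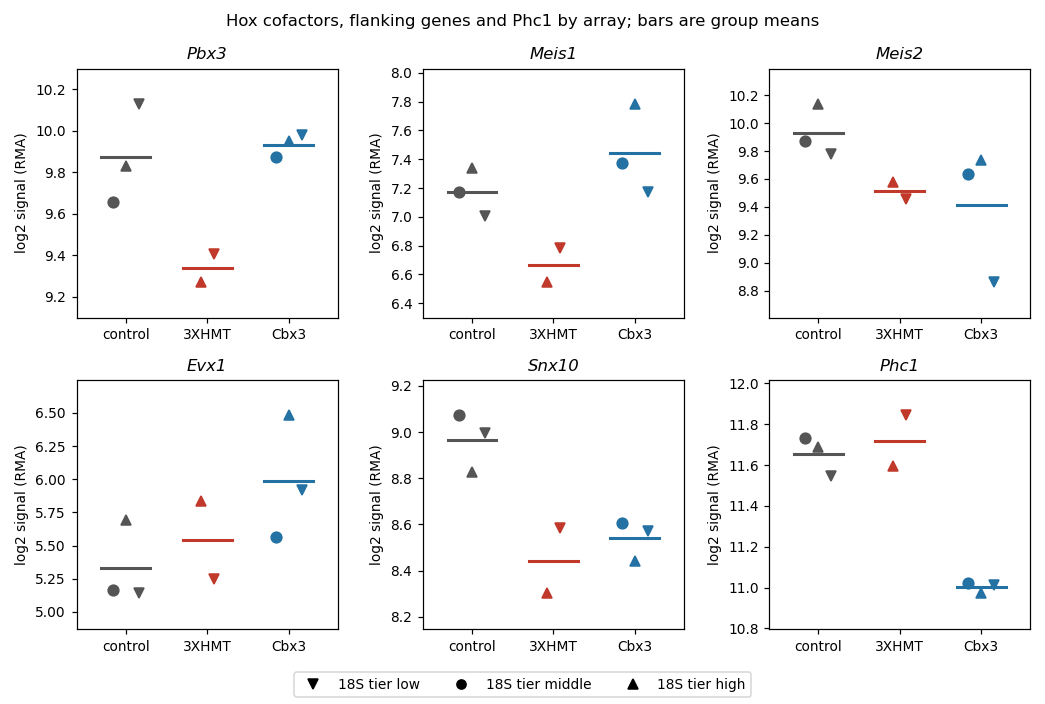
Log2 signal by array for the Hox cofactors Pbx3, Meis1 and Meis2, the cluster A neighbours Evx1 and Snx10, and the Polycomb gene Phc1, with bars at the group means and the marker shape giving the 18S tier. The y axes differ between panels. Both 3XHMT arrays are the lowest for Pbx3 and Meis1, and the 3 Cbx3 arrays are the lowest for Phc1.

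Upstream activators of the clusters were read next. All 6 genes of the Cdx and ParaHox list, relatives of the Hox genes that include direct Hox activators, were measured, and by limma 0 had an unadjusted p under 0.05, and so 0 an adjusted one, in any comparison with or without the block. Of 16 measured genes of retinoic acid signalling, which induces Hox genes in order along the cluster, 1 was lower and 0 higher at that level in 3XHMT against control, and 2 were lower and 0 higher in Cbx3 against control. In 3XHMT against Cbx3 1 was lower and 3 were higher. With the block the counts were 1 and 0, 3 and 3, and 2 and 3 in the same order. The lower gene in 3XHMT against control is Rdh10, which makes retinal, at -0.66 ± 0.21 (SE; limma adjusted p = 0.608); against Cbx3 it stood at -0.91 ± 0.21 (adjusted p = 0.0950; 0.00628 in the blocked fit). Crabp1, which binds retinoic acid in the cytosol, read 7.04, 6.38 and 6.48 in control, 6.64 and 6.39 in 3XHMT, and 5.85, 5.14 and 5.63 in Cbx3. The Cbx3 arrays lay below all others, by 1.09 ± 0.23 on the log2 scale or 2.13-fold against control (limma adjusted p = 0.110; 0.00262 with the block). The 3XHMT arrays were above Cbx3 by 0.97 ± 0.26 (limma adjusted p = 0.130; 0.00298 with the block). Crabp2, a relative of Crabp1, differed by -0.63 ± 0.27 in Cbx3 against control (limma adjusted p = 0.518) and by 0.84 ± 0.31 in 3XHMT against Cbx3 (adjusted p = 0.312). Aldh1a1, which makes retinoic acid, differed by 0.45 ± 0.16 in the latter (limma adjusted p = 0.311).

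Of the 12 Trithorax genes, whose products keep Hox genes active through H3K4 methylation, 1 was higher and 0 lower at an unadjusted p under 0.05 in 3XHMT against control, where 2.63% of all genes were in each direction, and 2 and 0 with the block. The former is Ash2l, a core subunit of the H3K4 methyltransferases, which read 10.10, 10.01 and 9.98 in control, 10.48 and 10.40 in 3XHMT, and 9.80, 9.90 and 9.82 in Cbx3. The 3 groups did not overlap. Its difference was 0.41 ± 0.11 (SE; limma adjusted p = 0.385) against control and 0.60 ± 0.11, 1.52-fold higher, against Cbx3, where it passed (adjusted p = 0.0395; 0.00955 with the block). Dpy30, another subunit of the same enzymes, was the 1 gene of the list lower at that level in Cbx3 against control, with 0 higher, at -0.35 ± 0.12 (limma adjusted p = 0.353). With the block 1 was lower and 4 were higher in that comparison, of which 0 passed over all genes by limma. In 3XHMT against Cbx3 0 were lower and 2 higher, and 2 and 2 with the block, where Ash2l and Dpy30 passed.

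Polycomb proteins hold silent Hox genes in their off state, and 26 of 28 listed genes were measured. In 3XHMT against control 1 of 26 was lower and 0 higher at an unadjusted p under 0.05, near the 2.63% of all genes in each direction, and the median was 0.00. With the block 3 were lower and 0 higher, and 0 passed over all genes by limma. The 1 gene is Pcgf5, which encodes a RING finger subunit of a variant Polycomb complex, at -0.67 ± 0.17 (SE; limma adjusted p = 0.352). In Cbx3 against control 2 were lower and 1 higher, where 4.79% and 4.77% of all genes were, and 2 and 2 with the block, with a median of -0.01. In 3XHMT against Cbx3 1 was lower and 3 were higher, and 4 and 3 with the block. Phc1, a subunit of canonical Polycomb complex PRC1, read 11.73, 11.69 and 11.54 in control, 11.59 and 11.84 in 3XHMT, and 11.02, 10.97 and 11.01 in Cbx3. The Cbx3 arrays stood below all others. The difference of -0.65 ± 0.11, 1.57-fold, did not pass against control (limma adjusted p = 0.0601; 0.00836 with the block), and 3XHMT was higher than Cbx3 by 0.72 ± 0.12 (adjusted p = 0.0340; 0.00683 with the block). Rnf2, the catalytic subunit that ubiquitinates histone H2A, differed by -0.54 ± 0.19 in Cbx3 against control (limma adjusted p = 0.369; 0.0187 with the block) and by 0.71 ± 0.21 in 3XHMT against Cbx3 (adjusted p = 0.188; 0.0109 with the block). Cbx7, which binds H3K27me3, differed by 0.42 ± 0.16 in Cbx3 against control (limma adjusted p = 0.428).

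The genes that flank the clusters were read to see whether differences ran past their ends, and 16 of 17 listed genes were measured. In 3XHMT against control 1 of 16 was lower and 0 higher at an unadjusted p under 0.05, where 2.63% of all genes were in each direction, with a median of 0.02. With the block 4 were lower and 0 higher, where 6.21% and 6.38% of all genes were, and 0 passed over all genes by limma. These were Snx10, Skap2 and Tax1bp1 near cluster A and Skap1 near cluster B. Over the list the arrays did not overlap with control for 3 genes lower, all of these but Tax1bp1, and 0 higher. The shares of all genes were 7.10% and 9.28%. The 1 gene without the block is Snx10, a sorting nexin gene near cluster A, which read 9.07, 8.83 and 8.99 in control, 8.30 and 8.59 in 3XHMT, and 8.61, 8.44 and 8.57 in Cbx3. Both knockdowns lay below the control arrays, by 0.52 ± 0.14 (SE; limma adjusted p = 0.381) and 0.42 ± 0.12 (adjusted p = 0.244; 0.0294 in the blocked fit). Evx1, a homeobox gene beyond Hoxa13, read 5.16, 5.70 and 5.14 in control, 5.84 and 5.25 in 3XHMT, and 5.56, 6.48 and 5.92 in Cbx3. Its arrays overlapped between all groups, and the difference of 0.66 ± 0.27 in Cbx3 against control did not pass (limma adjusted p = 0.474) until the tier was a block (adjusted p = 0.00913). Evx1 was then lower in 3XHMT than in Cbx3 by 0.59 (adjusted p = 0.0214). In Cbx3 against control 1 was lower and 1 higher at an unadjusted p under 0.05, with or without the block, and the median of the list was -0.01. In 3XHMT against Cbx3 0 were lower or higher without the block by limma, and 3 were lower and 0 higher with it.

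The list means of cell state markers stood apart from control for pluripotency genes in 3XHMT and for epithelial genes in Cbx3. Fibroblast genes did so narrowly in Cbx3, and the other means overlapped with control. The mean log2 signal of 10 pluripotency genes ran from 7.69 to 8.36 on the control arrays, 8.85 to 9.30 on the 3XHMT arrays and 8.19 to 8.67 on the Cbx3 arrays. Of these 10, 3 rose in 3XHMT by limma (Nanog, Zfp42 and Dppa4) and 1 in Cbx3 (Nanog), where 0.203% and 0.253% of all genes did. The mean of 5 epithelial genes ran from 7.81 to 8.98, 8.26 to 8.32 and 9.29 to 9.74 in the same order. All 5 were above control in Cbx3 at an unadjusted limma p under 0.05, where 4.77% of all genes were. By limma 0 passed over all genes, though 5 did in the tier-blocked fit, where 3.09% of all genes were called higher. Fibroblast genes had a mean over 10 genes of 5.25 to 5.39 in control, 5.31 to 5.52 in 3XHMT and 5.41 to 5.53 in Cbx3. The mean of 6 macrophage and blood genes ran from 5.93 to 6.19, 5.89 to 6.05 and 5.70 to 6.18, and that of 5 neural genes from 6.43 to 7.35, 6.72 to 6.94 and 6.83 to 7.32. Single markers within these lists differed by more than the means. Laptm5, a lysosomal membrane protein of blood cells, differed by -1.76 ± 0.30 in Cbx3 against control (SE; limma adjusted p = 0.0601; 0.00114 with the block). Of the 6 macrophage and blood genes 2 were lower and 4 higher in that comparison, with a median of 0.14. Dcn, a matrix proteoglycan of fibroblasts, differed by 1.02 ± 0.21 in 3XHMT against control (limma adjusted p = 0.189; 0.0470 with the block). Of the 10 fibroblast genes 4 were lower and 6 higher there, with a median of 0.05. Of the neural genes, Map2 differed by -1.08 ± 0.40 in 3XHMT against control (limma adjusted p = 0.776; 0.0209 with the block) and Tubb3 by 0.91 ± 0.22 (adjusted p = 0.325; 0.105 with the block). No marker is at 0 on this scale, and the part of these shifts in the Hox values was not tested.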

How the data were processed

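Log2 expression values of 45101 probe sets on 8 arrays were deposited by the authors. The submitters' processing notes name RMA, which subtracts background, equalises the distributions of the arrays and summarises probes, so a shift shared by most genes is removed. The sources used here give neither its version nor its settings. The medians of the arrays ran from 5.87 to 5.90, and the number of arrays limits the precision.

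The platform annotation gave names: 34945 carry 1 symbol and 932 several. Each gene was represented by its brightest one-symbol probe set, which gave 18193 genes; 64 control probe sets entered no test. All 33 Hox genes matched the RefSeq gene table. All 8 arrays entered 1 fit of group means (limma 3.58.1 with lmFit and eBayes, R 4.3.3, two-sided, 5 residual degrees of freedom), and a gene was called at a Benjamini-Hochberg adjusted p under 0.05 over all genes. The fits were tested on simulated data with independent noise and no tier effect, which leaves shifts shared by arrays of a tier untested.

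Arrays were divided into 3 tiers at the widest gaps of the middle 18S control probe set, and the tier was used as a block in an alternative fit with 3 residual degrees of freedom. Replicate numbers in the labels match control with Cbx3 arrays, whose deviations from their group means correlated by 0.57, 0.59 and 0.74. In both groups replicates 1, 2 and 3 are also the middle, high and low tier, so pairing by replicate and the tier cannot be told apart. The numbers do not pair 3XHMT with control (0.11 and -0.56) or with Cbx3 (0.24 and -0.50), where arrays of equal number differ in tier. Array values were printed for members called in either fit or with an unadjusted p under 0.05, and for the largest difference of each cluster in a comparison. Genes of the other lists were named by up to 3 of the lowest p-values. Markers were read as means over each list. The members, lists and alternatives were chosen with earlier results of these data known. Alternatives were the tier block, the replicate block, only the groups compared, an intensity trend, cyclic loess, no dim probe sets, other probe sets of a gene and leaving out each array.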

Additional observations from a re-analysis of the deposited data

How the results depend on the processing

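The 13 differences followed had an unadjusted p under 0.05 without the block or were called with or without it. Because they were chosen on these same arrays, a stable direction is no separate support for them. None changed direction in the alternatives that gave it a value, and those of dim members have none without dim probe sets. Hoxd13 in 3XHMT against Cbx3 was called in 9 of 17 alternatives. The tier block called 1 member in 3XHMT against control and 5 in 3XHMT against Cbx3, while leaving out arrays in that fit, chosen after seeing the data, gave 0 to 1 and 1 to 3. Leaving out each array without the block gave 0 to 1 members called in 3XHMT against Cbx3. The members' count of lower values then ran from 14 to 27 in 3XHMT against control, from 6 to 16 in Cbx3 against control and from 19 to 28 in 3XHMT against Cbx3, and their medians from -0.23 to 0.018, from 0.01 to 0.20 and from -0.30 to -0.057. At the second probe set and at the mean of probe sets 0 members were called in 3XHMT against Cbx3. Without dim probe sets 15 members remain, of which 12, 3 and 12 were lower in the 3 comparisons.

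Over all genes the calls were 42 in 3XHMT against control, 81 in Cbx3 against control and 275 in 3XHMT against Cbx3. The tier block gave 320, 1199 and 1660, and the replicate block 97, 312 and 655. The 2 groups alone gave 10 in 3XHMT against control and 27 in Cbx3 against control, and 1448 in the latter with the replicate block. The second probe set gave 24 in 3XHMT against control and 165 in 3XHMT against Cbx3, and leaving out dim probe sets gave 9 in 3XHMT against control. Leaving out each array gave 3 to 22, 2 to 34 and 22 to 273. The causes were not tested.

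The replicate block, whose numbers do not pair the 3XHMT arrays, called 4 members in 3XHMT against Cbx3, where it called 655 of 18193 genes. By limma these were Hoxd13 at -1.19 (adjusted p = 0.0121), Hoxd10 at -0.91 (0.0152), Hoxd9 at -0.78 (0.0449) and Hoxd8 at -0.70 (0.0320). Replicate 2 sets the low-tier 3XHMT 2 beside the high-tier control 2 and Cbx3 2. With the tier as a block Hoxd10, Hoxd9 and Hoxd8 did not pass (limma adjusted p = 0.214, 0.0573 and 0.155). The replicate block called 0 members in either comparison with control, where it called 97 genes for 3XHMT and 312 for Cbx3. The precision is limited by 2 arrays in the 3XHMT group, by the dim signal of 18 members, and by a single probe set for 22.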

Other observations

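Long noncoding RNAs inside the clusters, named after their values were seen, did not separate the groups. Hoxd3os1 read 8.55, 7.70 and 8.10 in control, 8.04 and 8.05 in 3XHMT, and 8.28, 7.87 and 8.13 in Cbx3, with a difference of -0.07 ± 0.23 (SE) for 3XHMT against control (limma adjusted p = 1.00). Hoxb5os differed by -0.05 ± 0.17 in the same comparison. Hoxa11os, an antisense transcript of Hoxa11, read 6.33, 5.85 and 5.17 in control, 5.73 and 5.35 in 3XHMT, and 6.06, 5.85 and 4.90 in Cbx3, so that the low-tier array was the lowest of each group as it was for Hoxa11.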
